A study of Mus musculus with 12 samples.

Results

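The genes of the PSD-95 family (*Dlg1*, *Dlg2*, *Dlg3* and *Dlg4*) and of the SAPAP scaffolds (*Dlgap1*, *Dlgap2*, *Dlgap3* and *Dlgap4*) were examined for binding of their RNA by SLM2, a STAR-family RNA-binding protein that regulates alternative splicing in neurons. A peak was given to 1 of these 8 genes when its centre lay inside the gene and on its strand. By this rule the genes held 69 of the 2057 peaks listed for whole brain (3.35%, exact 95% interval 2.62 to 4.23%) and 7 of the 178 listed for hippocampus (3.93%, 1.60 to 7.93%). The intervals cover counting error only.

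SLM2-bound RNA was mapped by eCLIP, in which RNA cross-linked to a protein by ultraviolet light is precipitated with it and sequenced, and is set against a size-matched input that skipped the precipitation. The material came from wild-type mice 30 days old, as whole brain or as dissected hippocampus, ground frozen and given 3 exposures of 400 mJ/cm2. Each tissue had 2 eCLIP and 2 input libraries, which the authors combined into 1 peak list per tissue, so that no spread between libraries can be given here. The labels also give 4 libraries from the hippocampus of *Slm2* KO mice, not analysed here.

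A −log10 p for eCLIP over input under 2 was found at none of the 2057 whole-brain peaks and at 95 of the 178 hippocampal peaks. Read depth was not measured here. The value of each peak is the log2 fold change of eCLIP over input. The median over the whole list was 2.56 in whole brain and 2.50 in hippocampus, and the lists begin at 2. In such bulk tissue, fewer cells that make an RNA and less RNA per cell cannot be told apart, and the level of each RNA was not measured here.

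Proteins of the PSD-95 family are membrane-associated guanylate kinases: their PDZ domains hold glutamate receptors, potassium channels and adhesion molecules under the synaptic membrane, and their guanylate kinase-like domain binds the SAPAP proteins. SAPAP proteins in turn bind Shank, which links to Homer and the actin cytoskeleton, so that both families form consecutive layers of the excitatory postsynaptic density. Several of these genes are very long, start from alternative promoters and carry alternative exons. SLM2 and its relatives recognise short A- and U-rich elements such as UWAA, where W is U or A.

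The whole-brain peak with the highest log2 fold change in each gene bound there is printed below to show the sequence under the signal. Also printed are the highest hippocampal peak that overlaps a whole-brain peak and the whole-brain peak nearest to an exon. That exon is one of *Gm44679*, not of *Dlg2*. Sequences are the sense strand of GRCm38 (mm10) from RefSeq, 5′ to 3′, with T for U. Capitals mark UWAA, searched as TTAA and TAAA on the sense strand alone with overlaps allowed. UWAA was present within 50 nt of the centre of 92.8% of the whole-brain peaks of these genes and 83.3% of all other whole-brain peaks, and in 69.6% and 67.1% of windows of the same length 500 nt away.
*Dlg1*, whole brain, chr16:31846569-31846737, + strand: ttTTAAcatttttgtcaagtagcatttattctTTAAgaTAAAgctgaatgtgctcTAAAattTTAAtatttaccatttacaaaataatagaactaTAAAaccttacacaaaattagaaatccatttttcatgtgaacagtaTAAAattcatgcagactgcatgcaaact
*Dlg2*, whole brain, chr7:91102595-91102656, + strand: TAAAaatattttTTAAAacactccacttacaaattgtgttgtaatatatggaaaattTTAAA
*Dlg2*, hippocampus, chr7:91102723-91102982, + strand: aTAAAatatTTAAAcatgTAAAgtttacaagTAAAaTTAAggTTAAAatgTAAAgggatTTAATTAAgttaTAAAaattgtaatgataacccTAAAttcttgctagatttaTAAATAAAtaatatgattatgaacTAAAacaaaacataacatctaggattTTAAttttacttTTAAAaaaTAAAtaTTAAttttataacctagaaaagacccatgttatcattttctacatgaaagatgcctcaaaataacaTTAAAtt
*Dlg2*, whole brain, chr7:91520156-91520277, + strand: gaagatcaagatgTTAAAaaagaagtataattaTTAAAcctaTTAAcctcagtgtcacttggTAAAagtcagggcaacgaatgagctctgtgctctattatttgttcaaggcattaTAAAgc
*Dlgap1*, whole brain, chr17:70347225-70347425, + strand: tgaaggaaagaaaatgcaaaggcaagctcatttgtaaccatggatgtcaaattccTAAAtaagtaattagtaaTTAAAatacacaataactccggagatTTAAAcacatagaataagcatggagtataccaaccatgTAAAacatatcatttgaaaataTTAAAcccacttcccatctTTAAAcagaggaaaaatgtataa
*Dlgap2*, whole brain, chr8:14274558-14274661, + strand: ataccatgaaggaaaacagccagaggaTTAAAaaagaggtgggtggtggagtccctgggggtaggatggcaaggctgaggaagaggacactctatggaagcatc
*Dlgap4*, whole brain, chr2:156627302-156627383, + strand: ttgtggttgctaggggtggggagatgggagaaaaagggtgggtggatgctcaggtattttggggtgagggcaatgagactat

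The printed peaks ranged from no UWAA in *Dlgap4* to 23 in the 260 nt of the hippocampal *Dlg2* peak, whose capitals cover 30.8% of the run. The *Dlgap1* peak held 10 in 201 nt and the *Dlg1* peak 7 in 169 nt. The longer element UUWAAAA was found in 17 of the 69 whole-brain peaks of these genes (24.6%) and in 378 of the 1988 others (19.0%). Of the 17, 16 lay in *Dlg2* and 1 in *Dlgap2*, and no peak of *Dlg1*, *Dlgap1* or *Dlgap4* held it. The higher share of the group thus rests on *Dlg2*, and it was not tested.

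Whole-brain peaks lay in 5 of the 8 genes. *Dlg2*, which encodes PSD-93, held 51 of the 69 (73.9%, exact 95% interval 61.9 to 83.7%). *Dlgap1*, which encodes SAPAP1, held 7, *Dlgap2* held 5, and *Dlg1*, which encodes SAP97, and *Dlgap4* held 3 each. *Dlg3*, which encodes SAP102, *Dlg4*, which encodes PSD-95 itself, and *Dlgap3*, known for the compulsive grooming of mice that lack it, had no whole-brain peak. Across the genome 1.92% of 21951 protein-coding genes held at least 1 whole-brain peak.

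The bound genes were the long ones. The 5 genes with whole-brain peaks spanned 1972.6 kb (*Dlg2*), 852.3 kb (*Dlgap1*), 751.8 kb (*Dlgap2*), 211.7 kb (*Dlg1*) and 150.7 kb (*Dlgap4*), and the 3 without spanned 67.8 kb (*Dlgap3*), 50.7 kb (*Dlg3*) and 30.6 kb (*Dlg4*). Lengths of the bound and unbound genes therefore did not overlap. Of all protein-coding genes over 100 kb, 12.4% held a whole-brain peak, against 0.576% of those up to 100 kb. Since these 8 genes were chosen with results of these data known, their count is a description and was not tested against these shares.

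Per length the order of the genes changed. *Dlg2* had 2.59 whole-brain peaks per 100 kb, *Dlgap4* 1.99, *Dlg1* 1.42, *Dlgap1* 0.821 and *Dlgap2* 0.665. The counts behind *Dlgap4* and *Dlg1* are 3 peaks each, and the order was not tested. Among the 74 protein-coding genes with at least 5 whole-brain peaks, *Dlg2* ranked 38th by peaks per 100 kb, close to their median of 2.61, and *Dlgap1* and *Dlgap2* ranked 64th and 67th. *Dlg2* is the 9th longest of all protein-coding genes.

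**Figure D1:**
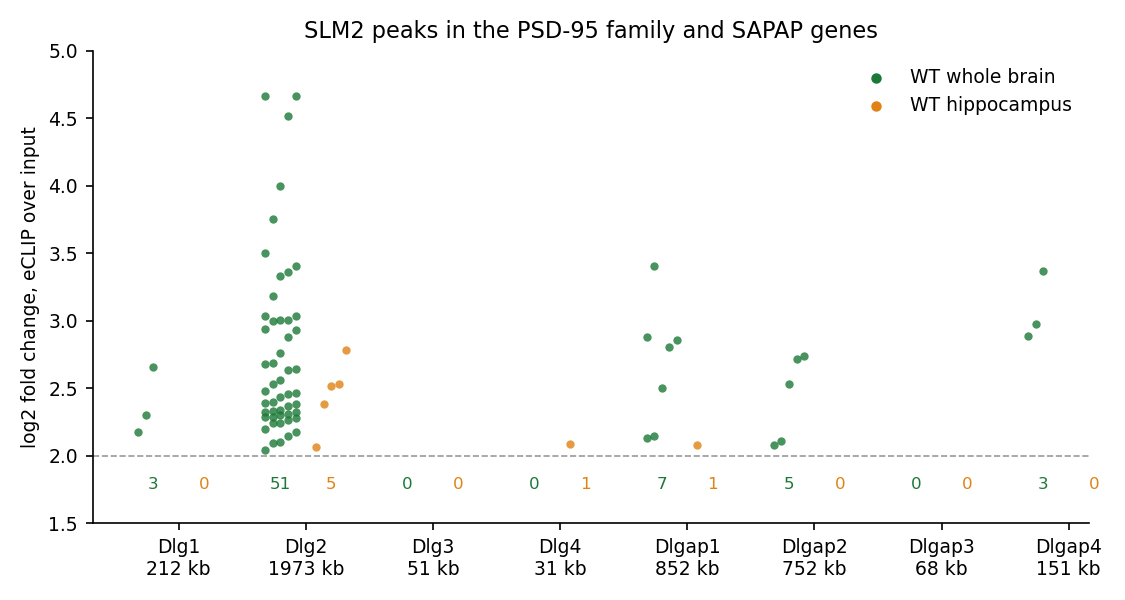
The log2 fold change of eCLIP over input (y axis) of each peak, by gene with its length (x axis), in whole brain (green) and hippocampus (orange). Numbers under the dashed line at the lists' threshold of 2 count the peaks; the 3 shortest genes have none in whole brain, and *Dlg2* holds 51.

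The heights of the whole-brain peaks of these genes ranged from 2.04 to 4.66, with a median of 2.53. By gene, the lowest, median and highest values were 2.04, 2.48 and 4.66 in *Dlg2*, 2.13, 2.80 and 3.41 in *Dlgap1*, and 2.08, 2.53 and 2.74 in *Dlgap2*. In *Dlg1* the 3 values were 2.18, 2.30 and 2.66, and in *Dlgap4* they were 2.88, 2.98 and 3.37. The ranges of the 5 genes overlapped, except that every *Dlgap4* peak stood above every *Dlg1* and *Dlgap2* peak. A log2 fold change of 3 or more was reached by 14 peaks of *Dlg2* and 1 each of *Dlgap1* and *Dlgap4*.

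All but 1 of the 69 whole-brain peaks were intronic (98.6%, exact 95% interval 92.2 to 100.0%). The exception was a *Dlg2* peak at chr7:91520156-91520277 (log2 fold change 2.44), which lay inside intron 7 of *Dlg2* but in a non-coding exon of *Gm44679*, a gene annotated there on the same strand. No peak of either tissue lay on the opposite strand of any of the 8 genes.

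The peaks of *Dlg2* were concentrated in 1 part of the gene. Its whole-brain peaks ran from 615 to 1858 kb after the gene's start, with a median of 6.16 kb between neighbours, and the gene held none before them. Annotated start sites of its protein-coding transcripts cut the gene into 4 stretches, and 46 of the 51 peaks (90.2%) lay in the second, which makes up 31.5% of the gene. That stretch, chr7:91090706-91711419, had 7.41 peaks per 100 kb, against 0 in the 613 kb before it and 0.570 and 0.775 in the 2 stretches after it. All 5 hippocampal *Dlg2* peaks lay in the second stretch too.

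The same boundary was visible inside a single intron. Intron 6 of the longest protein-coding transcript, Dlg2-217, is 534 kb long and contains the second start site. The 175 kb of the intron before that site held no peak of either tissue, and the 359 kb after it held 22 whole-brain and 4 hippocampal peaks. UWAA was equally frequent on both sides, at 1.63 per 100 start positions before the start site and 1.58 after it. Intron 7, of 283 kb, held another 24 whole-brain peaks and 1 hippocampal peak, so that the 2 longest introns of this transcript carried 46 of the 51.

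UWAA did not follow the stretches in the way that the peaks did. Tiles of 101 nt with at least 4 UWAA made up 11.7%, 12.3%, 13.7% and 9.11% of the 4 stretches in order. There were 709 such tiles in the first stretch, which had no peak, and 753 in the second, which had 46. How much RNA each start site gave was not measured here, and its part in the pattern was not tested.

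**Figure D2:**
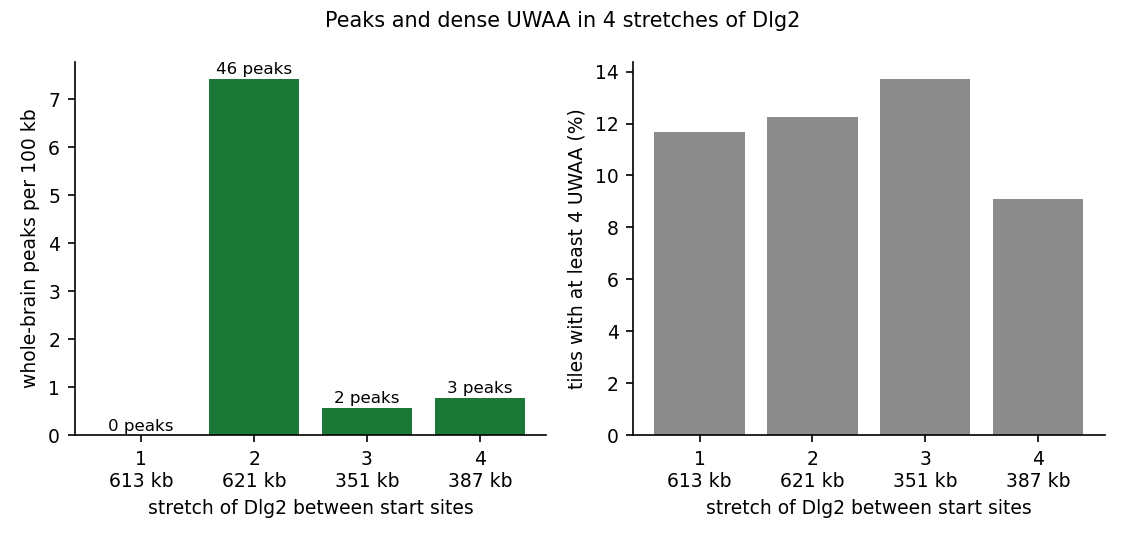
*Dlg2* cut at the annotated start sites of its protein-coding transcripts (x axis, stretch number and length). Left, whole-brain peaks per 100 kb, with the number of peaks; right, the percentage of 101-nt tiles with at least 4 UWAA. Peaks reach 7.41 per 100 kb in stretch 2 and 0 in stretch 1, while dense tiles make up 12.3% and 11.7%.

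The highest signal of *Dlg2* came from 1 site in intron 6. Within the 530 nt of chr7:91102563-91103092, 4 whole-brain peaks had log2 fold changes of 3.50, 4.66, 4.66 and 4.51, and the stretch held 33 UWAA. The first of the 4.66 values belongs to the printed 62-nt peak and was the 12th highest of all 2057 whole-brain peaks. The other belongs to the adjoining 211-nt peak, with 20 UWAA and the highest −log10 p of these genes, 20.2. The site lies 11.5 kb after the first exon of the transcript that begins at the second start site.

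Of the 5 highest *Dlg2* peaks, the remaining 2 differed in sequence. The peak at chr7:91557081-91557165 (4.00) in intron 7 had 6.12 UWAA per 100 start positions around its centre. The peak at chr7:92334769-92334842 (3.75) in intron 19 had no UWAA, lay wholly in sequence that RefSeq masks as repetitive, and had a −log10 p of 3.18. The next peak in order stood at 3.50.

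In all, the 51 peaks of *Dlg2* formed 39 sites when those less than 500 nt apart were joined, 6 of them with more than 1 peak. Over the 51 peaks, which share their libraries and their gene, the rank correlation of log2 fold change was 0.25 with UWAA density, −0.03 with peak length and 0.42 with the masked share of the window. These values are descriptions and were not tested.

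The *Dlg1* peaks lay in a single intron, before alternative exons. Its 3 peaks, at 2.30, 2.18 and 2.66, lay within chr16:31845114-31846737, 86 to 87% along the gene and in an intron of 4.80 kb in the longest transcript. That intron held 2.44 UWAA per 100 start positions, against 1.70 over the whole gene. The peaks follow a 70-nt exon that is in 6 of 6 protein-coding transcripts crossing the region.

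They precede 2 exons that are not in all of them. The first, of 100 nt at chr16:31846834-31846933, begins 97 nt after the last peak and is in 1 of the 6 transcripts. The second, of 34 nt at chr16:31847636-31847669, begins 899 nt after the last peak and is in the other 5. No annotated protein-coding transcript held both exons. Use of these exons was not measured here. The peak 97 nt from the exon is printed above, and the other 2 stood 428 and 1601 nt from it.

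*Dlgap1* had its 7 peaks in 4 introns of the longest transcript, each at least 76.2 kb long. The highest, 3.41 at chr17:70347225-70347425 in intron 3, had 6.12 UWAA per 100 start positions and the largest −log10 p of the gene, 5.15. Intron 2 held peaks at 2.13 and 2.50, intron 5 peaks at 2.80 and 2.88, and intron 8 peaks at 2.15 and 2.85. The 2.15 peak in intron 8 was the nearest to an exon, 367 nt after one of a transcript with a retained intron and 647 nt after one of a protein-coding transcript. The peak at 2.50 had no UWAA within 50 nt of its centre, and the other 6 had between 1.02 and 7.14.

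*Dlgap2*, which encodes SAPAP2, had all 5 peaks in its longest intron, of 273 kb, between 179 and 260 kb after the gene's start. They stood at 2.74, 2.53, 2.11, 2.08 and 2.72 in order along the gene. The printed peak, the highest, had 2 UWAA in 104 nt, and the peak at 2.53 had none within 50 nt of its centre. The other 3 had 4.08 to 5.10 UWAA per 100 start positions, and the last of them, at chr8:14355300-14355494, also had the gene's highest −log10 p, 6.46, with 89.1% of its window masked.

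*Dlgap4*, which encodes SAPAP4, had the lowest mean UWAA density and the lowest median A and T share at its peaks among the bound genes. Its 3 peaks, at 2.88, 3.37 and 2.98, lay 1.54, 13.6 and 52.9 kb after the gene's start in the first 2 introns. UWAA stood at 0, 0 and 1.02 per 100 start positions around their centres, and A and T made up 40.6%, 50.5% and 43.6% of the windows. The median A and T share at the peaks was 43.6% in *Dlgap4*, 68.3% in *Dlg2*, 74.3% in *Dlg1*, 64.4% in *Dlgap1* and 60.4% in *Dlgap2*. A *Dlgap1* peak at 47.5% and *Dlgap2* peaks at 48.5% fell within the range of the *Dlgap4* peaks. All other whole-brain peaks of these genes lay above that range. Over the whole *Dlgap4* gene, A and T made up 48.2%. The printed *Dlgap4* peak is rich in runs of G. The −log10 p of the 3 peaks was 2.86, 3.31 and 3.15, and their −log10 IDR of 2.01, 2.21 and 2.06 stood close to the threshold of 2.

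**Figure D3:**
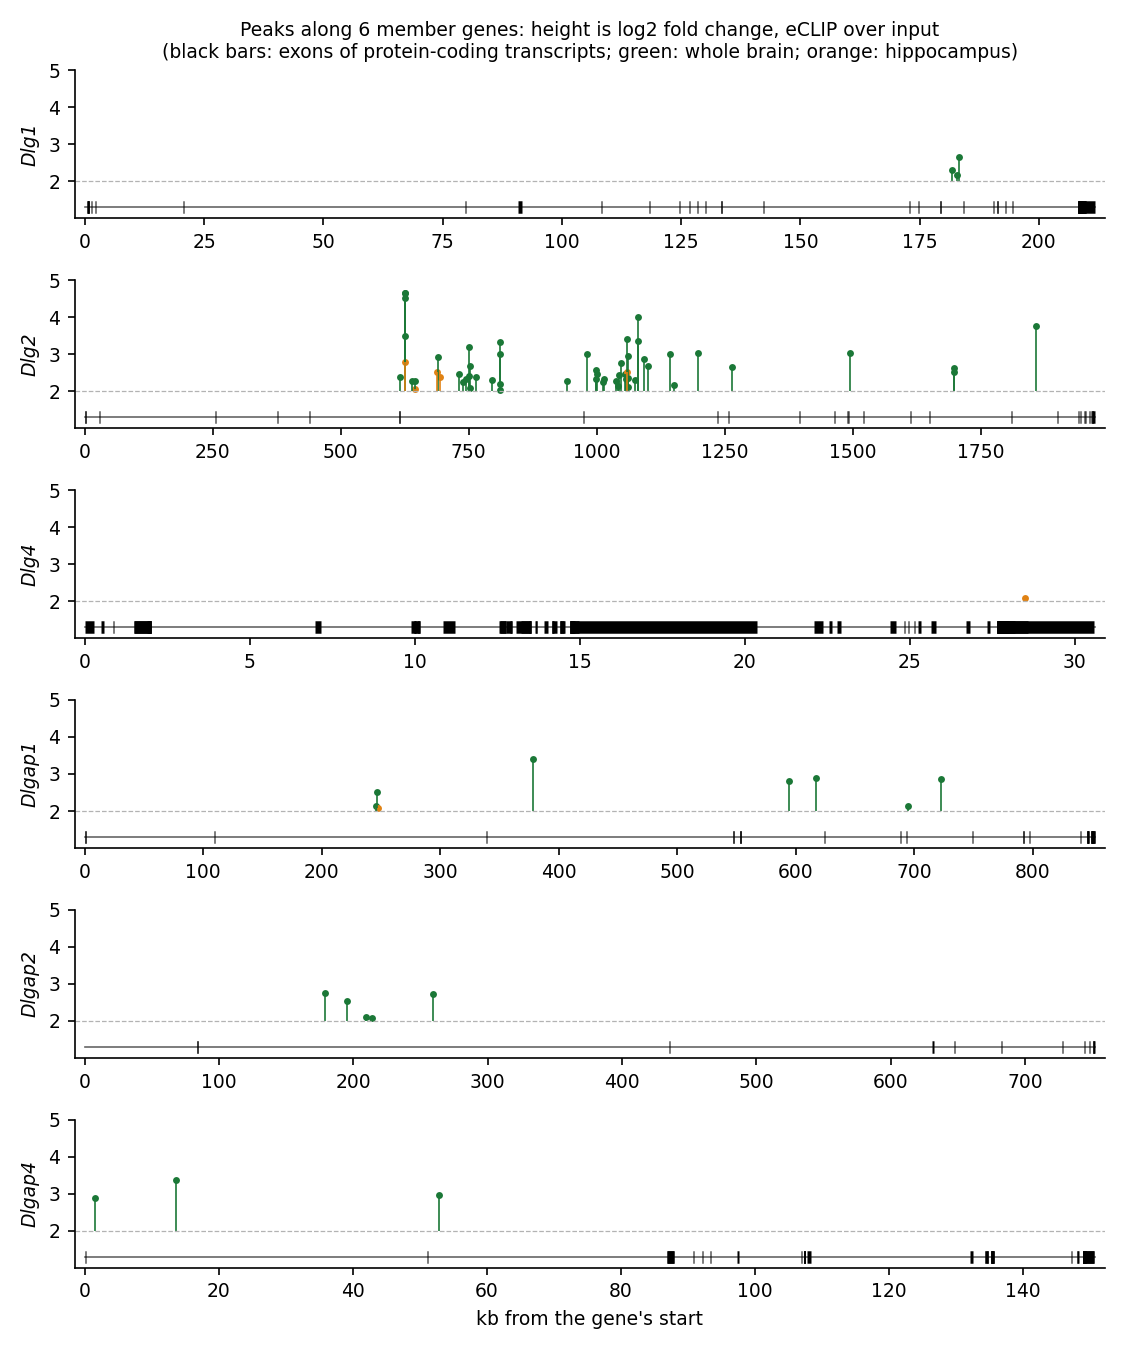
Peaks along 6 of the genes, in kb from the gene's start (x axis, scaled to each gene); the height of each line is the log2 fold change of eCLIP over input, in whole brain (green) or hippocampus (orange), and black bars are exons of protein-coding transcripts. *Dlg2* has no peak before 615 kb, and the *Dlg1* peaks lie together near 183 kb.

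UWAA was denser at the peaks than beside them. Over the 69 whole-brain peaks the mean was 3.87 per 100 start positions within 50 nt of the centre. In flanks 500 nt away it was 1.72, a difference of 2.15 over pooled peaks, most of them from *Dlg2*. By gene, the mean difference was 2.34 in *Dlg2*, 2.48 in *Dlgap1*, 2.24 in *Dlgap2*, 0.850 in *Dlg1* and −0.680 in *Dlgap4*. The SD between these 5 gene means was 1.36. The 1988 other whole-brain peaks had 3.59 at the peaks and 1.80 in the flanks. Density was above the flanks at 55 of the 69 peaks (79.7%), equal at 3 and below at 11, and above at 66.3% of the other peaks. Of the 55, 43 were among the 51 peaks of *Dlg2*. In the other genes it was above at 2 of 3 peaks in *Dlg1*, 5 of 7 in *Dlgap1*, 4 of 5 in *Dlgap2* and 1 of 3 in *Dlgap4*. Where peaks cluster, flanks can fall on neighbouring peaks. Both flanks of the *Dlg2* peak at chr7:91287882-91287999 did so, with 2.04 at the peak and 6.12 in the flanks. With flanks 1000 nt away, the difference over the 69 peaks was 2.08. Peaks of 1 gene are not replicates, and the difference was not tested.

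By gene, density at the peaks and in the flanks was 4.26 and 1.92 in *Dlg2*, 3.40 and 2.55 in *Dlg1*, 3.35 and 0.875 in *Dlgap1*, and 3.06 and 0.816 in *Dlgap2*. *Dlgap4* went the other way, at 0.340 and 1.02. Over whole genes, UWAA stood at 1.70 in *Dlg1*, 1.56 in *Dlg2*, 1.31 in *Dlgap1*, 0.939 in *Dlgap2* and 0.580 in *Dlgap4*. The genes without whole-brain peaks had 0.862 (*Dlg3*), 0.671 (*Dlgap3*) and 0.621 (*Dlg4*), so *Dlgap4*, with 3 peaks, had the lowest density of the 8.

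**Figure D4:**
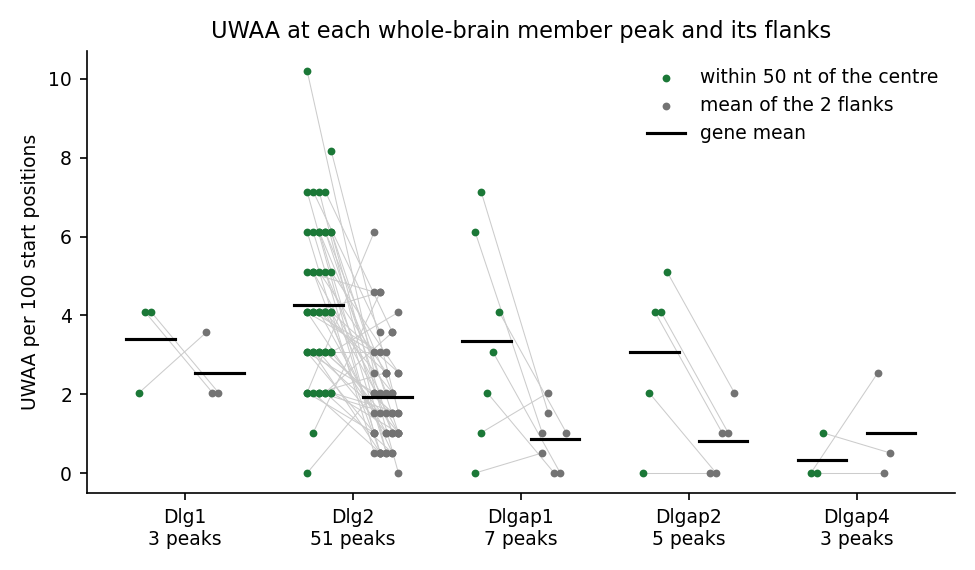
UWAA per 100 start positions (y axis) at each whole-brain peak (green) and in its flanks (grey, mean of both), joined by lines, with each gene's mean as a black bar. Means at the peaks are above those of the flanks in 4 genes, and *Dlgap4* has 0.340 against 1.02.

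The density was highest just before the peak centre. In windows of 51 nt it was greatest 50 nt upstream of the centre in *Dlg2* (4.90), in the other genes of the group together (3.70) and in all other whole-brain peaks (4.17). At the centre it was 3.92, 2.66 and 3.65 in the same order. The other genes of the group have only 18 peaks, and their density 200 nt upstream, 2.89, was above that at the centre. Cross-link sites were not analysed here.

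**Figure D5:**
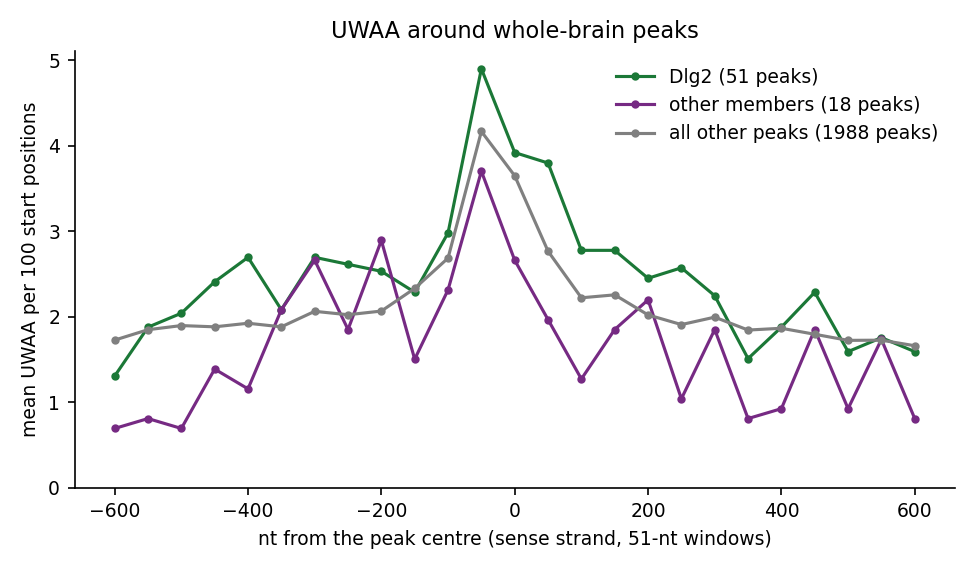
Mean UWAA per 100 start positions (y axis) in 51-nt windows by distance from the peak centre (x axis, nt, sense strand) for the 51 whole-brain peaks of *Dlg2* (green), the 18 of the other genes of the group (purple) and the 1988 others (grey). All 3 lines are highest at 50 nt before the centre, at 4.90, 3.70 and 4.17.

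The shares that the choice of genes did not use were compared with the rest of the whole-brain list. UWAA was present at 64 of the 69 peaks (92.8%, exact 95% interval 83.9 to 97.6%) and at 1656 of the 1988 others (83.3%, 81.6 to 84.9%; two-sided Fisher's exact test p = 0.0450, adjusted p = 0.135 over the 3 shares). This difference did not pass the threshold of 0.05. Leaving out *Dlg2*, 14 of 18 peaks had UWAA (77.8%) and the difference changed sign (adjusted p = 0.787 by Fisher's exact test).

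The UWAA comparison changed once windows with more than 20% masked bases were left out. All 35 remaining peaks of these genes had UWAA, against 750 of 977 others (76.8%; adjusted p = 0.000721 by Fisher's exact test). Of the 35, 10 lay outside *Dlg2*. For these alone the difference was 23.2 points, with p = 0.128 and adjusted p = 0.354 by Fisher's exact test. Most peaks come from a single gene and are not independent, so that these p-values are too small.

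For masked sequence and for nearness to exons, the genes were not separated from the rest by the test. More than 20% of the window was masked at 34 of the 69 peaks (49.3%, 37.0 to 61.6%) and at 1011 of the 1988 others (50.9%, 48.6 to 53.1%; adjusted p = 0.808 by Fisher's exact test). The masking is that of RefSeq, whose runs in *Dlg2* were as short as 19 nt, so that it is not confined to whole repeat elements. An exon lay within 500 nt of 4 of the 69 peaks (5.80%, 1.60 to 14.2%) and 221 of the 1988 others (11.1%, 9.77 to 12.6%; adjusted p = 0.354 by Fisher's exact test). The 4 were 2 of *Dlg1*, 1 of *Dlgap1* and the *Dlg2* peak in *Gm44679*.

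In hippocampus, 7 peaks lay in 3 of the 8 genes: 5 in *Dlg2*, 1 in *Dlgap1* and 1 in *Dlg4*. Of all protein-coding genes 0.378% held a hippocampal peak, and of those over 100 kb 2.61%. The 7 peaks ranged in log2 fold change from 2.06 to 2.79, and in −log10 p from 0.741 to 1.66. All 7 thus belong to the hippocampal peaks whose −log10 p was under 2, against 2.84 as the lowest value in the whole-brain peaks of these genes.

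The highest hippocampal peak marked the same site as in whole brain. The *Dlg2* peak at chr7:91102723-91102982, printed above, had a log2 fold change of 2.79 and shared 188 nt with the whole-brain peak at 4.66 and 71 nt with its neighbour at 4.51. A second *Dlg2* peak, chr7:91536042-91536201 (2.53), lay wholly inside a 396-nt whole-brain peak at 3.40 that has 13 UWAA and a −log10 p of 18.8. These were the 2 of 7 hippocampal peaks that overlapped a whole-brain peak.

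The other 5 did not. Those in *Dlg2*, at 2.06, 2.52 and 2.38, lay 42, 1002 and 4293 nt from the nearest whole-brain peak. The *Dlgap1* peak, at 2.08 in intron 2, lay 883 nt from one and had no UWAA within 50 nt of its centre. The 3 *Dlg2* peaks and the *Dlgap1* peak had 81.2 to 100% of the window masked, and the *Dlg4* peak 32.7%. Of the 2 *Dlg2* peaks that did overlap, the higher had 77.2% masked and the other 29.7%. Heights in the 2 tissues were not compared by a test.

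*Dlg4* had its one peak in hippocampus. It lay at chr11:70045388-70045469 in the 3′ untranslated region, with a log2 fold change of 2.09, a −log10 p of 0.741, the lowest of these genes, and no UWAA. A and T made up 32.7% of its window. It is the one peak of the group in an exon of the gene itself.

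A list of 30 further genes was counted for comparison, most of them for scaffold and signalling proteins of the postsynaptic density. The list also includes *Dlg5*, *Dlgap5*, *Dynll1* and *Dynll2*, which had no peak in either tissue. Of the 30, 7 held a whole-brain peak, beside 1.92% of all protein-coding genes, and 5 a hippocampal one, beside 0.378%. These genes were all over 100 kb, as 19 of the 30 are, and of all genes of that length 12.4% held a whole-brain and 2.61% a hippocampal peak. *Lrrc7*, which encodes densin-180, had 22 whole-brain peaks (highest 3.82), *Cnksr2* had 15 (3.66), and *Frmpd4* and *Magi2* had 4 each (4.41 and 3.17). The Shank genes, whose products bind the SAPAP proteins directly, had no peak in either tissue. *Shank1* and *Shank3* span 50.3 and 60.6 kb, and of all genes up to 100 kb only 0.576% held a whole-brain peak. *Shank2* spans 423 kb.

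Of 25 genes for receptors, channels, adhesion molecules and their partners that the PSD-95 family holds at synapses, 8 held a whole-brain peak, beside 1.92% of all protein-coding genes, and 5 a hippocampal one, beside 0.378%. *Nlgn1*, a postsynaptic adhesion molecule, had 35 whole-brain peaks (highest 3.23), *Grik2*, a kainate receptor subunit, had 22 (4.38), and *Erbb4*, the neuregulin receptor, had 6 (3.71). The 5 others had 1 peak each. Among the genes of this list over 100 kb, 5 of 9 held a whole-brain peak and 5 of 9 a hippocampal one, beside 12.4% and 2.61% of all such genes. Both lists were drawn up with results of these data known, and their counts were not tested.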

How the data were processed

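The deposited data are 1 peak list for WT whole brain and 1 for WT hippocampus. Per the study's methods and the submitters' processing notes, the authors used cutadapt 3.4 for trimming, STAR 2.7.9 for alignment against mm10, UMI-tools 1.1.1 for deduplication, CLIPper for peak calling and IDR, a score of rank agreement between replicates, for merging both replicates. The deposited columns have no names: their ranges and the methods identify the log2 fold change of eCLIP over input, its −log10 p and the −log10 IDR score, all computed by the authors, with thresholds of 2 on the first and last. Per-library counts were not used here.

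Positions were read as mm10, shifted to 1-based, and matched to GENCODE vM21 by peak centre and strand. Sequence came from the RefSeq GRCm38 genome (pysam 0.24.0). UWAA was counted per 100 start positions in 101-nt windows. Shares were compared by two-sided Fisher's exact tests (scipy 1.17.1) with Benjamini-Hochberg adjustment over 3 shares, and intervals are Clopper-Pearson. The counting steps were tested on simulated data. Alternatives covered thresholds, windows, flanks, masking, merging and leaving out *Dlg2*. Described singly were all peaks of genes with up to 10 peaks and, in *Dlg2*, the 5 highest and those in both tissues. The genes, lists and comparisons were chosen with earlier results of these data known.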

Additional observations from a re-analysis of the deposited data

How the results depend on the processing

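The count of 69 whole-brain peaks became 16 with a minimum log2 fold change of 3 and 9 with a minimum −log10 IDR of 3. It stayed at 69 with any overlap or without adaptor-like peaks, and was 56 after merging. The 7 hippocampal peaks became 0 and 1 under the same minimums, and 0 without peaks of −log10 p under 2. The share with UWAA, 9.45 percentage points above that of all other peaks, was 23.2 points above it without masked windows, which passed the test. Most of those peaks come from *Dlg2* and are not independent, so that p-value is too small. With *Dlg2* left out as well, all 10 remaining peaks had UWAA and the difference stayed at 23.2 points. It did not pass the test (p = 0.128, adjusted p = 0.354 by Fisher's exact test). Without *Dlg2* but with masked windows kept, the share changed to −5.52 points. The masked share, −1.58 points, became 1.56 points with a minimum log2 fold change of 3, and the share near an exon, −5.32 points, became 5.55 points without *Dlg2*. The cause was not tested in any of these. The excess of UWAA over flanks, 2.15, ranged from 1.62 without *Dlg2* to 2.49 with windows at the 5′ end. The setting without masked windows and without *Dlg2* was chosen after seeing the data. No paired analysis was possible because each tissue has 1 merged list. Read depth is unknown here, so a gene without a peak may be bound below what these lists can show.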
